A study of Mus musculus with 4 samples.

Results

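Mouse embryonic fibroblasts (MEFs) in which the endogenous Rb gene had been deleted were given back either a wild-type or a non-phosphorylatable Rb protein, and the transcripts of the cultures were compared gene by gene. The arm called ΔCdk Rb-HA (dCDK in the labels) carried murine Rb whose Ser and Thr acceptor sites for cyclin-dependent kinases (Cdks) were changed to Ala, apart from a Ser left as it was, and the arm called WT Rb-HA carried the unaltered protein (below, ΔCdk Rb and WT Rb). A gene entered the comparison if any of its probes had a detection p-value below 0.01 on either of these arrays, and its brightest probe, by mean normalized log2 signal, stood for it. This rule kept 12002 of the 30872 gene symbols on the array, out of 12616 detected on any of the 4 arrays of the series. Cells were embryonic fibroblasts of strain FVB;129 from mice homozygous for a loxP-flanked Rb allele. Both arms received the cell-permeable recombinase TAT-Cre in 2 treatments of 1 h, 3 h apart, and then an MSCV retrovirus with the Rb construct in 2 infections of 1 h, 3 h apart. The other arrays of the series came from parental MEFs, mock treated for both steps, and from Rb-deleted MEFs, which had TAT-Cre and medium without virus. According to the study, all cultures were arrested in early G1 phase by cell contact, released and treated with a sub-lethal dose of the topoisomerase II poison doxorubicin, which the labels do not mention. The question put by the pair is whether the effect of Rb on transcription under DNA damage differs when its Cdk sites cannot be phosphorylated.

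Rb is a pocket protein that binds E2F transcription factors at promoters of genes for DNA replication and S phase entry and represses them. Cyclin D:Cdk4/6 and then cyclin E:Cdk2 phosphorylate Rb in G1 phase, and hyper-phosphorylated Rb releases E2F. Fibroblasts also respond to damage through p53 and its target Cdkn1a, make extracellular matrix, and run an interferon response that is maintained by secreted interferon and by the transcription factors Stat2, Irf7 and Irf9.

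Each condition was measured on 1 array, so no difference below has a replicate check, no test was made, and the construct cannot be told apart from anything else that differed between these cultures. Errors in parentheses are bead standard errors (the spread over beads of a probe within the arrays) of a log2 difference, and they leave out variation between cultures. Mean intensity ranged from 336 to 346 over the 4 arrays, probes detected from 15950 to 16740, and the median number of beads per probe was 44 on each. All 12 fibroblast markers analysed were detected on both arrays, with a summed intensity of 69810 for WT Rb and 62220 for ΔCdk Rb, whereas 1 of 7 endothelial, 4 of 7 epithelial, 4 of 7 muscle and 3 of 7 neural markers were detected on either. The summed intensities of the detected ones, for WT Rb and ΔCdk Rb, were 381 and 309.5 for epithelial, 1276 and 1697 for muscle and 1709 and 1563 for neural markers. Male-specific Ddx3y and female-specific Xist were both detected on every array, with intensities for WT Rb and ΔCdk Rb of 770.4 and 626 for Ddx3y and of 291 and 222 for Xist.

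The Rb1 probe at transcript position 4421 had intensities of 543 on the parental, 160.5 on the Rb-deleted, 181 on the WT Rb and 170.1 on the ΔCdk Rb array. Its log2 difference between ΔCdk Rb and WT Rb was -0.06 (0.07), and the other probe, at 4002, was not detected on either array. Signal stayed near that of Rb-deleted MEFs in both infected cultures. Whether the probes match the retroviral Rb message is not stated in the sources used here. In myoblasts, the study depleted endogenous Rb with a short hairpin RNA against an untranslated region of its message while expressing the retroviral constructs. Whether the probes lie in a region that the retroviral message lacks was not tested. By immunoblot, the study reports both re-expressed Rb proteins at physiologic levels. The probe signals are of RNA and do not measure that protein. A group of 4 probes listed under bare numbers, with no gene name, and picked out after their values were seen, separated infected from uninfected cultures. The brightest of them had intensities of 123, 105.3, 6540 and 9491 on the parental, Rb-deleted, WT Rb and ΔCdk Rb arrays. In the same order, another had 52.999, 44.8, 4720 and 6993, and a further probe had 82.5, 77.1, 5459 and 7488. The dimmest had 41.7, 41.2, 976 and 1620. All 4 were brighter with ΔCdk Rb than with WT Rb, by 0.46 to 0.77 on the log2 scale. The table names no gene for them, and the part of this difference in the results below was not tested.

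**Figure D1:**
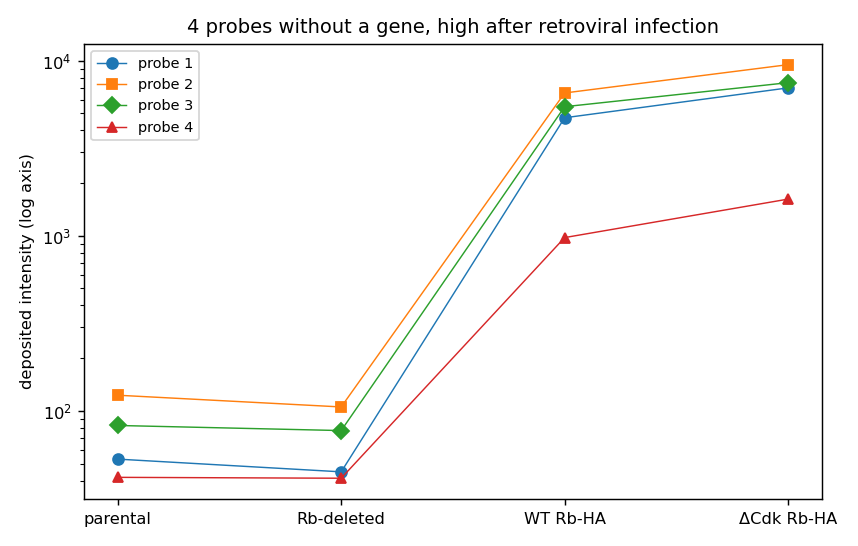
Deposited intensity (log axis) of the 4 probes without a gene name on the 4 arrays, 1 array per condition. Signals lay between 41.2 and 123 on the uninfected arrays and between 976 and 9491 on the infected ones, and each was higher with ΔCdk Rb than with WT Rb.

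With ΔCdk Rb compared to WT Rb, 107 genes (0.892% of those analysed) were higher and 126 (1.05%) were lower by more than 1.6-fold, the filter of the study, which is 0.68 on the log2 scale. The median difference over all 12002 genes was -0.0046, and the 5th and 95th percentiles lay at -0.40 and 0.41. Differences past 2-fold were seen for 23 higher and 38 lower genes. The largest increases were in genes of secreted serine proteases, chemokines and the epidermal envelope, and the largest decreases were in elastin, interferon-induced genes, a granin and the Cdk inhibitor Cdkn1c. All 233 differences exceeded 2 bead standard errors, whose median over all genes was 0.09. The dimmest of the 4 probes without a gene name is counted among the 107. WT Rb signal of the probe used was not above background for 21 of the higher genes (Gzme was detected by another probe), and ΔCdk Rb signal was not above background for 27 of the lower genes, so that only a bound on the fold exists for these. Ranked by mean level and split into 4 classes of equal size, the dimmest class held 35 higher and 43 lower genes and the brightest 13 and 17. Without background correction 54 of the 107 and 67 of the 126 were still past 1.6-fold.

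**Figure D2:**
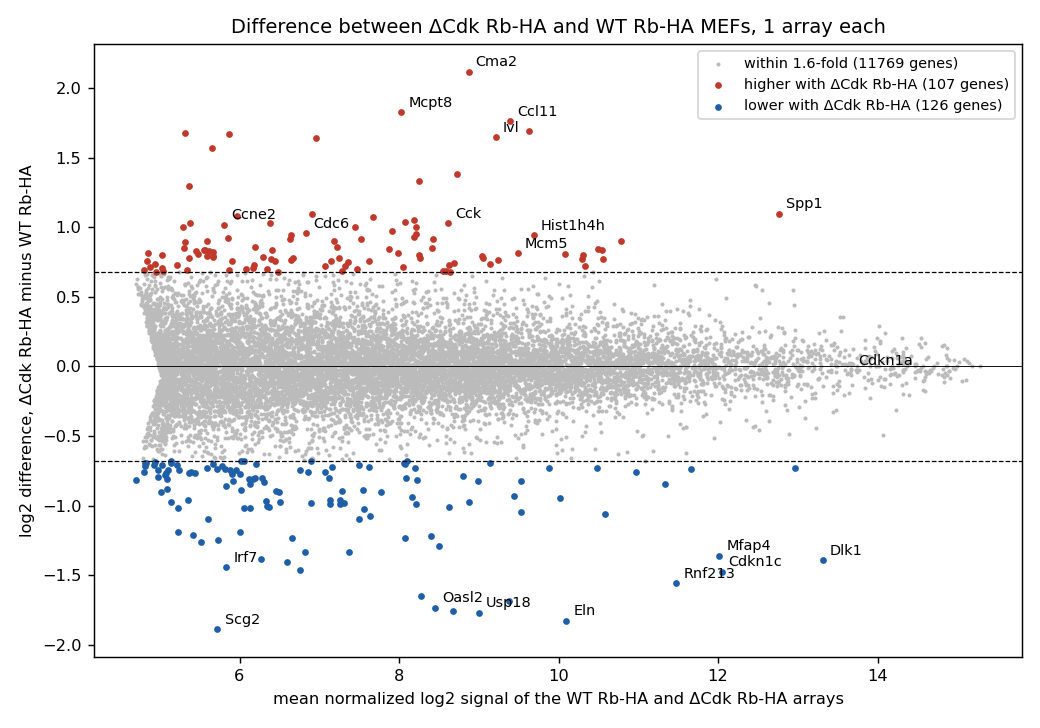
Log2 difference between the ΔCdk Rb and WT Rb arrays against the mean normalized log2 signal of the 2 arrays, for each of 12002 genes. Dashed lines mark 1.6-fold, red points the 107 higher genes and blue points the 126 lower genes, and the cloud is widest among dim genes.

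Another detected probe of the same gene gave a check on probe artefacts, though not on cultures. Of the 107 higher genes 24 had such a probe. It pointed the same way for 23 of them and passed 1.6-fold for 10. Of the 126 lower genes 35 had one, all 35 pointed the same way and 19 passed 1.6-fold. Over all 3432 genes with another detected probe, the direction was shared by 67.3%.

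**Figure D3:**
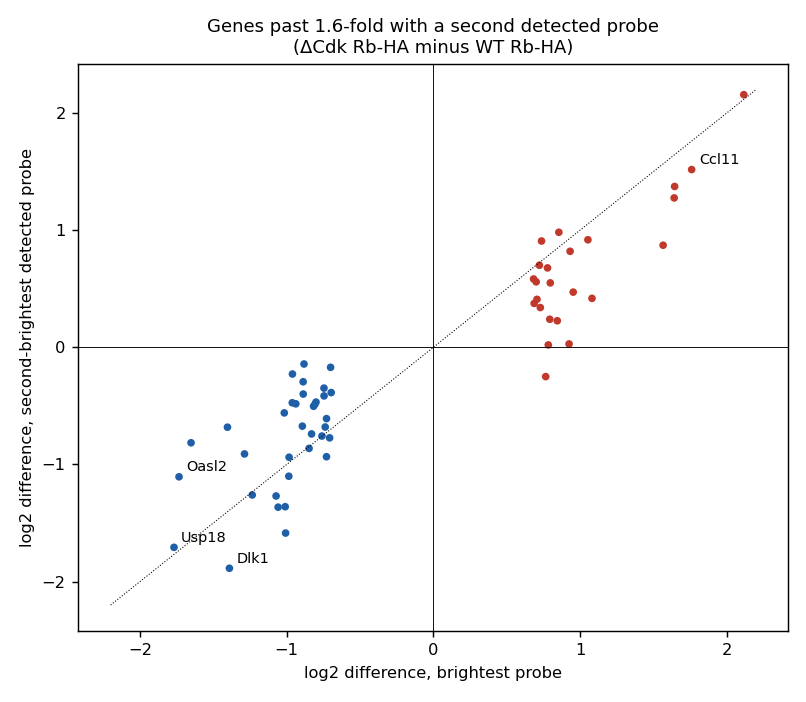
Log2 difference (ΔCdk Rb minus WT Rb) of the next brightest detected probe against that of the brightest probe, for the 24 higher (red) and 35 lower (blue) genes that had both. The dotted line marks equal values, and 1 red point lies below 0 on the vertical axis.

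Genes of DNA replication, many of them known E2F targets, mostly lay slightly above 0 with ΔCdk Rb compared to WT Rb. Over 7 lists of replication genes (helicase, origin factors, polymerases, clamp and single-strand binding proteins, nucleotide synthesis, repair and chromatin assembly), 72 of 85 genes lay above 0, with a median log2 difference of 0.28 compared to -0.0046 over all genes. Past 1.6-fold were only 3 of the 85, namely Mcm5, Cdc6 and Chaf1b, and none of the 85 was lower by that much. Differences above 2 bead standard errors numbered 53, and 4 lay below -2 bead standard errors. In bulk RNA, more cells in S phase and more message per cell cannot be told apart. Promoter windows of 250 bases before and 50 bases after the gene start (RefSeq, GRCm38.p6) were available for 72 of the 85. The E2F motif, searched as TTTCGCGC or TTTGGCGC on both strands, was found in 9 of these 72 windows (12.5%), compared to 0.833% of all 27025 RefSeq promoters. Over the genes analysed the share was 1.66%, but only 8420 of the 12002 have a window, and the rest are not covered by that share. The 9 genes with a match had a median log2 difference of 0.34, and the 63 without had 0.24. Over all genes analysed with a window, the 140 with a match had a median of 0.02 and the 8280 without had -0.0075. Of genes past 1.6-fold with a window, 2 of 79 higher and 1 of 76 lower ones had a match. A match is a run of letters and not a measured binding site. Mcm5 is shown as the replication gene past 1.6-fold that had a match, and its 2 matches overlap on opposite strands. Rbl1, the gene of the pocket protein p107, is shown as an E2F target that the study followed. Capitals mark the matches, read 5′ to 3′ on the gene's own strand, at chr8:75109336-75109387 (plus strand) for Mcm5 and chr2:157204535-157204572 (minus strand) for Rbl1.
Mcm5: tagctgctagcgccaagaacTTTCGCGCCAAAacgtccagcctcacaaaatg
Rbl1: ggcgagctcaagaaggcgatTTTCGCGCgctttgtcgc

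Mcm5 (chromosome 8), a subunit of the replicative MCM helicase, had intensities of 367 on the parental, 1274 on the Rb-deleted, 565 on the WT Rb and 950.1 on the ΔCdk Rb array. The ΔCdk Rb value was 1.75-fold that of WT Rb and lay between those of the WT Rb and Rb-deleted arrays. All 7 helicase genes analysed were higher with ΔCdk Rb, with a median of 0.34 and a range from 0.26 (0.12) for Mcm3 to 0.81 (0.05) for Mcm5. Mcm3 had intensities of 63.8, 223, 140.1 and 159 in the same order of arrays, a gap between the Rb arms of about 2 bead standard errors. Mcm10, which helps to load polymerase at origins, had 115, 169, 113 and 160.7 and a difference of 0.66, short of the filter.

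Cdc6 (chromosome 11) loads the helicase onto origins. It had intensities of 79.8, 162, 106.8 and 179 on the parental, Rb-deleted, WT Rb and ΔCdk Rb arrays, so that its ΔCdk Rb value was the highest of the 4. Of 19 genes for origin licensing and firing, 18 were above 0 (median 0.35) and Cdc6 alone passed 1.6-fold, at 1.94-fold (log2 difference 0.96, 0.10). Gins1, a subunit of the GINS complex, followed with 71.6 for WT Rb and 94.0 for ΔCdk Rb, a difference of 0.61. Its level stayed below the 104.1 of Rb-deleted MEFs. Cdt1, the partner of Cdc6 in licensing, differed by 0.48 and Cdc7, the kinase that fires origins, by 0.55.

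At the replication fork, the list for the sliding clamp, its loader and RPA had all 12 genes above 0, with a median of 0.31. None of them passed 1.6-fold. The list also holds Rnaseh2a, which had its largest difference (99.3 to 126.7, 0.50, 0.12). Rpa1, the large subunit of the single-strand binding protein, had 1098, 2496, 1431 and 1912 on the parental, Rb-deleted, WT Rb and ΔCdk Rb arrays (difference 0.45, 0.06). The clamp Pcna itself had 304, 359, 294 and 376, so the ΔCdk Rb array was again the highest. Among 9 polymerase and primase genes 5 were above 0 (median 0.17), from -0.25 for Pold3 to 0.33 for Prim2. Nucleotide synthesis genes gave 6 of 9 above 0 (median 0.22). Tk1, thymidine kinase, led them with 140.6 for WT Rb and 201 for ΔCdk Rb, a difference of 0.66 (0.12). Rrm2, the ribonucleotide reductase subunit that limits dNTP supply in S phase, differed by 0.55. Repair genes had a median of 0.15, with 10 of 13 above 0.

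Chaf1b (chromosome 16), a subunit of the chromatin assembly factor CAF-1, had 146, 509, 229 and 353 on the parental, Rb-deleted, WT Rb and ΔCdk Rb arrays. Its difference of 0.71 (0.07) was just past the filter, and without background correction it was 0.65, just short of it. Of 16 genes for chromatin assembly and maintenance 14 were above 0, with a median of 0.26. Uhrf1, which guides maintenance methylation, came next with 750.5 for WT Rb and 1119.9 for ΔCdk Rb (0.63).

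G1 regulators differed in both directions. Ccne2 (chromosome 4), the gene of cyclin E2, had 51.8 on the parental array, where it was not detected, and 87.4, 64.5 and 102.3 on the Rb-deleted, WT Rb and ΔCdk Rb arrays. It was 2.02-fold higher with ΔCdk Rb than with WT Rb (1.02, 0.13) and highest there of the 4 arrays. Its relative Ccne1 differed by 0.43 (0.12), from 124 to 155. Cdkn1c (chromosome 7), the imprinted gene of the Cdk inhibitor p57, went the other way, with 4613, 8789, 7049 and 2504 on the parental, Rb-deleted, WT Rb and ΔCdk Rb arrays. The ΔCdk Rb value was the lowest of the 4 and 2.78-fold below that of WT Rb (-1.48, 0.05). Cdkn2a, which encodes p16 and ARF, differed by 0.41, and cyclin D genes Ccnd1, Ccnd2 and Ccnd3 by 0.18, -0.20 and 0.16. The list of 17 G1 cyclins, Cdks and inhibitors thus had 1 gene higher, 1 lower and a median of 0.15.

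Among E2F and pocket protein genes, E2f4 (chromosome 8), the E2F found with p107 and p130 in resting cells, was the only one past the filter. It had 176, 199, 200 and 126 on the parental, Rb-deleted, WT Rb and ΔCdk Rb arrays, a difference of -0.76 (0.13) that fell short of 1.6-fold without background correction (-0.64). E2f1, itself an E2F target, had 388, 809, 557 and 626 (0.21, 0.05). Rbl1 had 76.9, 118, 77.1 and 99.3 (0.55, 0.12), so WT Rb was close to parental and ΔCdk Rb lay between WT Rb and Rb-deleted. The list of 14 had a median of 0.05, with 8 above 0. Ccna2, for cyclin A2, was not detected on either array and is not among the genes analysed.

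Mitotic genes leaned one way without any of them passing the filter. Of 25 G2/M genes 24 lay above 0, with a median of 0.35 and none past 1.6-fold. Tpx2, a spindle factor, had 241, 198, 174 and 242 on the parental, Rb-deleted, WT Rb and ΔCdk Rb arrays (0.59, 0.08), which put ΔCdk Rb level with parental rather than above it. Aurka, the kinase it activates, had 201, 198, 185 and 254 (0.56). Foxm1, the transcription factor of this program, was the exception at -0.05, and Cenpa, the brightest of the list, differed by 0.10 (0.06). The E2F motif was present in 1 of the 22 mitotic promoters with a RefSeq window (4.55%).

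No gene of the p53 list passed the filter. Cdkn1a (chromosome 17), the p53 target for the Cdk inhibitor p21, had 13743, 14204, 13204 and 12998 on the parental, Rb-deleted, WT Rb and ΔCdk Rb arrays (-0.03, 0.04), and its other probes gave -0.24 and -0.13. The 28 p53 targets analysed had a median of -0.10, with 20 below 0, from Ercc5 at -0.33 to the stress gene Ddit4 at 0.20. Mdm2, the ubiquitin ligase for p53, was at 0.10 and Bax, a pro-apoptotic target, at 0.02. None of 7 genes for topoisomerases and drug efflux passed the filter, though the transporter Abcc4 (219 to 326, 0.66) and the doxorubicin target Top2b (140.4 to 103.1, -0.52) came close to it from opposite sides. Of 20 immediate early genes none passed, with Egr1 at -0.15 and Myc at -0.63.

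Replication-dependent histone genes were higher with ΔCdk Rb in a way that set them apart from the Rb-deleted array. Hist1h4k (chromosome 13) had 167, 101.7, 226 and 431 on the parental, Rb-deleted, WT Rb and ΔCdk Rb arrays, and Hist1h4h had 414, 260.3, 621 and 1138. For both, Rb-deleted MEFs were the lowest and ΔCdk Rb MEFs the highest of the 4. All 8 H4 genes were above 0 (median 0.56), and Hist1h4k, Hist1h4h and Hist1h4j were higher past the filter at 1.05, 0.94 and 0.78. Genes for H2b had 9 of 10 above 0 (median 0.36), with none past 1.6-fold. H2a genes were close to 0, with a median of 0.10 and 13 of 15 above 0. Of them Hist1h2ab passed, with WT Rb at 58.0 (not detected) and ΔCdk Rb at 82.2, a difference of 0.83 that was 0.53, inside the filter, without background correction. Genes for H1 and H3 had a median of 0.27, with Hist1h3a past the filter (134 to 205, 0.76, or 0.65 and inside it without background correction). Without the filter on dim probes the H1 and H3 median was 0.0853 over 19 genes. In all 5 of 43 histone genes were higher, 0 lower and 38 above 0. Histone copies are nearly identical in sequence, so values of single genes within a family are uncertain.

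**Figure D4:**
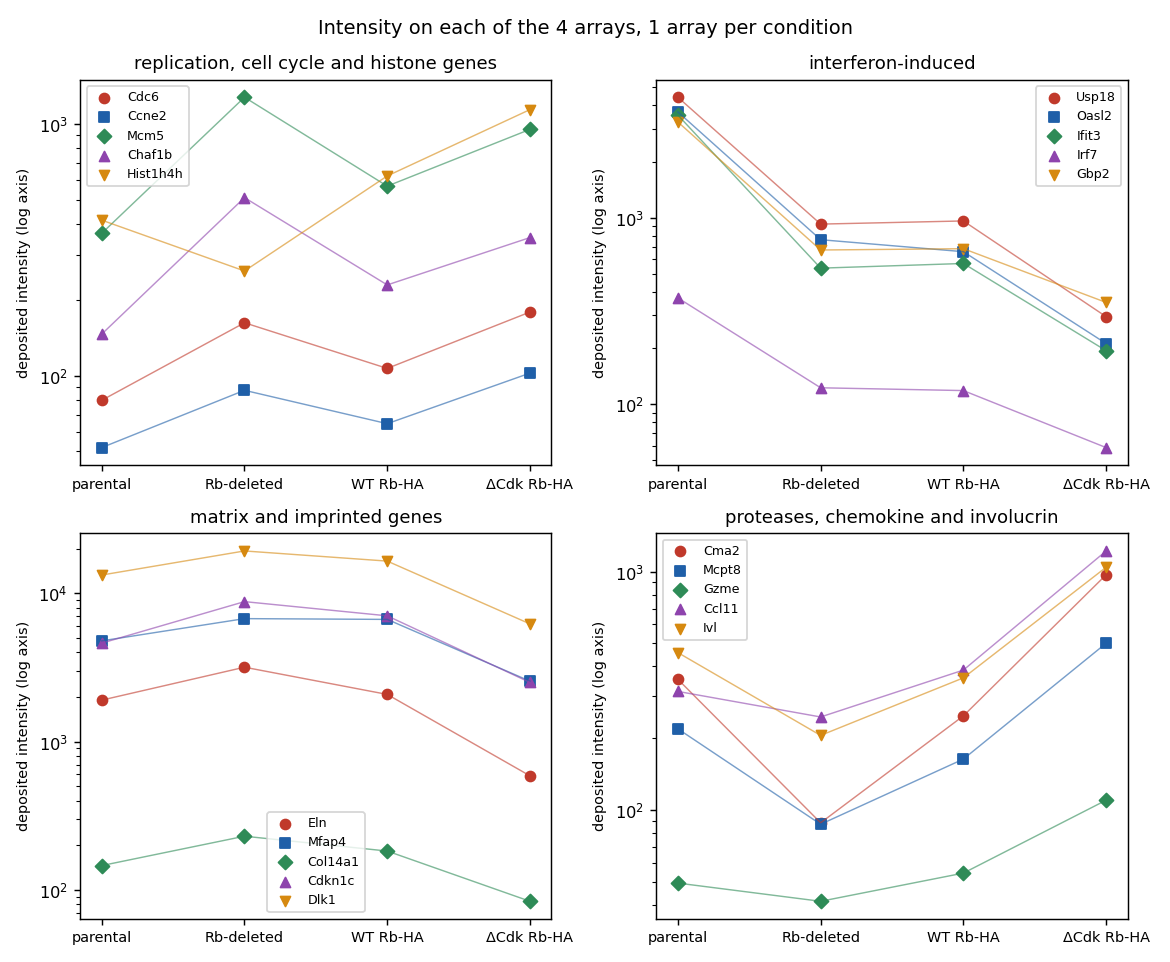
Deposited intensity (log axis) of 5 genes per panel on the parental, Rb-deleted, WT Rb and ΔCdk Rb arrays, 1 array per condition. ΔCdk Rb was the lowest of the 4 arrays for the interferon, matrix and imprinted genes shown and the highest for the protease, chemokine and involucrin panel, while Mcm5 and Chaf1b lay between WT Rb and Rb-deleted.

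Interferon-induced genes had more members past the filter than any other list examined. Of 41 such genes 40 were on the array and 31 were analysed. Of these 18 were lower with ΔCdk Rb than with WT Rb by more than 1.6-fold, 0 were higher, and the median log2 difference was -0.91, with 28 of 31 below 0. The median was -0.63 without background correction, -0.60 with an offset of 50 and -0.56 over 40 genes without the filter on dim probes. Usp18 (chromosome 6), the protease that removes ISG15 from proteins, had 4424, 924, 961 and 295 on the parental, Rb-deleted, WT Rb and ΔCdk Rb arrays. Rb-deleted and WT Rb lay close together, between a higher parental and a lower ΔCdk Rb value. Against WT Rb, ΔCdk Rb was 3.41-fold lower (-1.77, 0.07), and another Usp18 probe gave -1.71. LOC100048346, annotated as similar to Usp18, gave -1.76, and the probes may share message.

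Motifs of the interferon-stimulated response element were searched as 2 GAAA blocks set 2 bases apart, or TTTC blocks where the match is on the other strand. Only 22 of the 31 genes have a promoter in the RefSeq table, too few for a share over the list, so that check is void. Among the 22, 13 had a match. The median difference was -0.91 for these 13 and -0.90 for the 9 without. Of genes past 1.6-fold with a window, 13 of 76 lower and 7 of 79 higher ones had a match. Over all genes analysed with a window, 229 of 8420 had a match. Windows are shown for LOC100038882, which the RefSeq table lists as Isg15, for Ifit3 and for Cxcl10, which were strongly lower genes with a match, and capitals mark the blocks. They lie at chr4:156200855-156200916 (minus strand), chr19:34583353-34583436 (plus strand) and chr5:92349073-92349122 (minus strand) of GRCm38.p6.
Isg15: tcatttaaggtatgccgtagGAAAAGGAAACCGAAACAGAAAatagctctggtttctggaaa
Ifit3: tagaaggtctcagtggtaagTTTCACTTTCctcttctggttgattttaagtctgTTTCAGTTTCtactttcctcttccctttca
Cxcl10: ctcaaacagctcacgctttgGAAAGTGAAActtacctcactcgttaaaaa

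Isg15 encodes the ubiquitin-like modifier that Usp18 removes. Its probe LOC100038882 (chromosome 4) had 3897, 1029.8, 1210.4 and 382 on the parental, Rb-deleted, WT Rb and ΔCdk Rb arrays, a difference of -1.69 (0.10). Oasl2, of the 2′-5′ oligoadenylate synthetase family, had 3690, 762, 658 and 212 (-1.73, 0.08). Ifit3, of the family that binds viral RNA, had 3548, 537, 569 and 194 (-1.65, 0.07), with -0.82 for its other probe. For all of these the ΔCdk Rb array was the lowest, and WT Rb lay close to Rb-deleted.

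The factors that drive this response were among the lower genes. Irf7, the interferon regulatory factor that amplifies it, had 372, 123, 118 and 58.6 on the parental, Rb-deleted, WT Rb and ΔCdk Rb arrays (-1.44). Stat2 and Irf9, which act together in the response to interferon, differed by -1.10 and -0.98. The interferon-inducible GTPases Igtp, Gbp3, Gbp2 and Ifi47 gave -1.33, -1.23, -0.97 and -0.97. The sensors of viral RNA Ifih1 and Dhx58 were not detected with ΔCdk Rb, with intensities of 46.3 and 49.9 there and of 69.6 and 78.5 with WT Rb. Without background correction they were at -0.55 and -0.63, inside the filter. Rnf213, a large ubiquitin ligase induced by interferon and not on the list, had 11823, 5041, 4951 and 1633 (-1.56, 0.04). A few members did not share the pattern. Irgm1, an autophagy GTPase and the brightest gene of the list with ΔCdk Rb, had 5018 for WT Rb and 6024 for ΔCdk Rb (0.28), and Bst2 and Zbp1 were both at 0.08.

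Antigen presentation genes, which interferon also induces, differed little. Of 14 MHC class I genes none passed 1.6-fold, the median was -0.12 and B2m, the shared light chain, was at 0.04. The peptide transporter Tap1 had the largest difference (146 to 104.5, -0.58).

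Chemokines were split. Ccl11 (chromosome 11), eotaxin, had 314, 246, 386 and 1221 on the parental, Rb-deleted, WT Rb and ΔCdk Rb arrays. It was 3.39-fold higher with ΔCdk Rb than with WT Rb (1.76, 0.06), and its other probe gave 1.52. LOC100048554, annotated as similar to the monocyte chemokine MCP-2, had 449.7, 245, 461 and 1406 (1.69, 0.07), and Ppbp, a platelet chemokine precursor, had 102, 71.1, 95.5 and 238 (1.64, 0.13). Cxcl14 was higher as well (0.72). Cxcl10, an interferon-induced attractant of T cells, had 605, 74.0, 90.7 and 52.0, was not detected with ΔCdk Rb and was at least 2.065-fold lower there after background correction (-0.78 on the log2 scale without it). Ccl2, the chief monocyte chemokine of fibroblasts, differed by -0.61. Of 13 chemokines on the list 2 were higher, 1 lower, and the median was -0.31. Among 13 genes of the IL-6 family, Il11 passed the filter (1304 to 2400.04, 0.90, 0.11) and Il6 differed by 0.39.

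Markers of macrophages were detected in these cultures. Of 20 on the array 15 were analysed, and their summed intensity was 7320 for parental, 3158 for Rb-deleted, 2820 for WT Rb and 3376 for ΔCdk Rb, while Ptprc and Itgam were not detected on either Rb array. Cd53, a leukocyte tetraspanin (148.03 to 266, 1.00), and Lyz2, lysozyme (430 to 696, 0.78), were higher past the filter. The receptor Csf1r (134 to 140.1) and Emr1, the gene of F4/80 (203 to 198), differed by 0.11 and -0.00. Of the 15 markers 9 lay above 0 and 6 below, with a median of 0.11, and C1qb was the lowest at -0.33. The part of macrophage content in the interferon and chemokine differences was not tested.

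Proteases encoded together on chromosome 14 included the 2 largest increases. Cma2, a chymase, had 353, 88.4, 248 and 969.9 on the parental, Rb-deleted, WT Rb and ΔCdk Rb arrays. With ΔCdk Rb it was 4.33-fold higher than with WT Rb (2.12, 0.07), and another probe gave 2.16. Mcpt8, a protease of basophil granules, had 219, 87.1, 164 and 500.7 (1.83, 0.10). Both were lowest on the Rb-deleted array and highest on the ΔCdk Rb array. Gzme, a granzyme, had 54.4 with WT Rb and 109.9 with ΔCdk Rb (1.57, 0.22). Its other probe, detected on both arrays, had 58.5 and 84.9 and gave 0.87. Gzmd had 67.2 and 102.5 (0.92), but 0.65 without background correction, short of the filter, and its other detected probe gave 0.03. Of 15 genes of the locus on the array only 5 were detected on either array, and Cma2, Mcpt8, Gzme and Gzmd were higher past the filter. Cma1 and the brightest Gzme probe entered through the ΔCdk Rb array alone, so the count describes the genes and supports nothing beyond them. The remaining 10, among them Ctsg and Gzmb, were not detected. Most markers of mast cells outside the locus stayed low. Cpa3, Fcer1a, Ms4a2 and Hdc were not detected, and Kit had 50.4 and 57.1 for WT Rb and ΔCdk Rb. The 4 mast cell markers detected on either array, with Cma1 of the locus among them, summed to 451 for WT Rb and 444 for ΔCdk Rb. Most of that sum was Gata2 (288 and 263), the only one below 0, at -0.12. The other 3 lay above 0, and the median of the 4 was 0.24.

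Other leading increases included genes of an envelope cluster on chromosome 3. Ivl (chromosome 3), involucrin of the epidermal envelope, had 457, 206, 358 and 1043 on the parental, Rb-deleted, WT Rb and ΔCdk Rb arrays (1.64, 0.06), and its other probe gave 1.37. Its neighbours Lce1g, a late envelope protein, and A030004J04Rik were not detected with WT Rb and were at least 3.14-fold and 2.14-fold higher with ΔCdk Rb after background correction. Without it their differences were 1.17 and 1.09. Keratin genes Krt14 and Krt18 differed by -0.46 and -0.47, whereas Krt20 was higher past the filter. Slco4a1, an organic anion transporter, had 473, 267, 283 and 684 (1.38, 0.06).

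Elastic fibre genes held the largest decrease among bright genes. Eln (chromosome 5), elastin, had 1904, 3174, 2080.3 and 588 on the parental, Rb-deleted, WT Rb and ΔCdk Rb arrays. The ΔCdk Rb value was the lowest of the 4 and 3.55-fold below WT Rb (-1.83, 0.05). Mfap4 and Mfap2, microfibril proteins that associate with elastin, had 4779, 6749, 6669 and 2555 (-1.36, 0.05) and 1954, 2498, 2248 and 1058 (-1.06, 0.06). All 3 detected Mfap2 probes were lower, by -1.36, -0.93 and -1.06. Ltbp4, a latent TGF-β binding protein needed for elastic fibre assembly, was at -0.99. The rest of the apparatus differed less. Fibrillin Fbn1 was at -0.29 and the cross-linking enzymes Lox and Loxl1 at 0.08 and -0.17. Over the 18 genes 4 were lower, 0 higher and the median was -0.09.

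Collagen genes leaned lower, with 18 of 22 below 0 and a median of -0.26. Past the filter were Col14a1, a collagen on fibril surfaces (-1.40, 0.10), Col8a2, a short-chain collagen (-1.29, 0.06), and Col15a1, of basement membranes (-0.81, 0.10, but -0.60 without background correction). Intensities on the parental, Rb-deleted, WT Rb and ΔCdk Rb arrays were 146, 230.0, 183 and 83.7 for Col14a1 and 527, 693, 589 and 250.4 for Col8a2. The main fibrillar genes Col1a1, Col1a2 and Col3a1 were at -0.39, -0.25 and -0.38, inside the filter. Proteases of the matrix were divided. Mmp9, a gelatinase, went from 998 with WT Rb to 560.4 with ΔCdk Rb (-0.83, 0.06), and Mmp10, stromelysin 2, from 1168 to 1957 (0.77, 0.05). The list of 14 metalloproteinases and their inhibitors had a median of -0.12. TGF-β and myofibroblast genes centred on 0.00 over 23 genes, with Postn, periostin, as the only one past the filter (219 to 124, -0.96, 0.17), though its other detected probe gave -0.47. Of the 12 fibroblast markers, Pdgfrb, a platelet-derived growth factor receptor, was lower (366 to 231, -0.70, 0.10, but -0.65 without background correction), and the median was -0.17.

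Growth genes with imprinted expression included some of the brightest lower genes. Dlk1 (chromosome 12), a transmembrane inhibitor of fat cell differentiation, had 13283, 19306, 16491 and 6218 on the parental, Rb-deleted, WT Rb and ΔCdk Rb arrays (-1.39, 0.05), and its other probe gave -1.89. Together with Cdkn1c it was 1 of 2 genes past the filter among 12 imprinted genes, of which 10 were below 0 (median -0.21). H19, a noncoding RNA of that network, was at -0.49, and Igf2, its neighbour, at -0.21. In the IGF system 9 of 10 genes were below 0 (median -0.22) and Igf1 passed, with 281, 356, 420 and 244 (-0.82, 0.07), though its dimmer probes gave -0.50 and -0.28. Of 8 adipogenic genes Lpl, lipoprotein lipase, was lower (969 to 512, -0.93, 0.05), Adfp, which coats lipid droplets, was higher (274 to 465, 0.85, 0.13), and the median was -0.07. Pparg, the master regulator of fat cells, was at -0.05.

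Neuropeptide and granin genes gave opposite extremes. Scg2, secretogranin II, had 103, 174, 126 and 51.2 on the parental, Rb-deleted, WT Rb and ΔCdk Rb arrays, was not detected with ΔCdk Rb and was at least 3.22-fold lower there after background correction. Without the correction the difference was -1.29. Cck, cholecystokinin, had 141, 288, 298 and 565 and was 2.04-fold higher (1.03, 0.07). The other 5 detected genes of the list lay between -0.09 and 0.62. Angptl1, a secreted angiopoietin-like protein, had 133, 182, 204 and 89.1 (-1.46, 0.13). In the complement list C1qtnf6, a C1q-like secreted protein, was not detected with ΔCdk Rb (61.7 to 42.9, -0.76, but -0.49 without background correction), and Cd59a, an inhibitor of the membrane attack complex, was higher (968 to 1637, 0.80, 0.05). Its near copy Cd59b was higher too (164 to 245, 0.70, but 0.62 without background correction), and their probes may share message.

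Lists of housekeeping genes had medians near 0. The ribosomal and respiratory chain lists had median bead standard errors of 0.05 and 0.06, below the 0.09 over all genes. They do not stand for dimmer genes. Over all genes the 5th and 95th percentiles of the difference were -0.40 and 0.41. Of 61 ribosomal protein genes and 73 respiratory chain genes none passed 1.6-fold, with medians of -0.02 and 0.05. Among 20 genes of cholesterol and fatty acid synthesis none passed either, with a median of -0.02. Against these medians the G2/M, helicase, origin and clamp lists lay at 0.31 to 0.35, chromatin assembly at 0.26, nucleotide synthesis at 0.22, polymerases at 0.17, repair at 0.15 and the interferon list at -0.91, without a test of the gap.

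**Figure D5:**
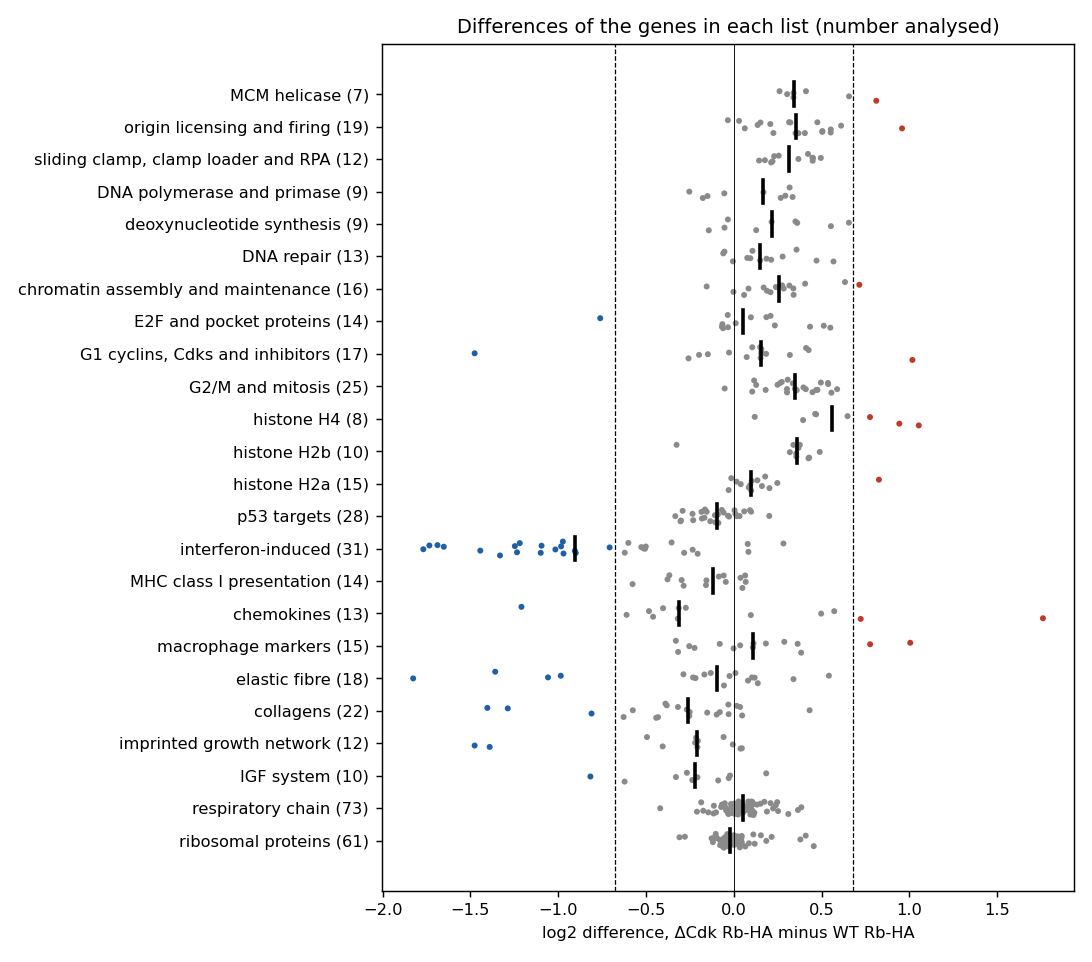
Log2 difference (ΔCdk Rb minus WT Rb) of every gene analysed in each of 24 lists, with the number of genes in parentheses, a black bar at the median and dashed lines at 1.6-fold. Interferon-induced genes spread far below 0, replication, mitotic and H4 genes lie mostly above 0, and ribosomal and respiratory chain genes gather around 0.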

How the data were processed

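RNA of 4 MEF cultures was measured on Illumina mouse whole-genome BeadChips. The authors deposited the intensity of 45281 probes, averaged over beads and not normalized, with a detection p-value in steps of 1 in 936, a bead standard error and a bead number. The summarizing software is not given in the sources used here. Of 40 symbols turned into dates, 34 were restored with the RefSeq table (GRCm38.p6). Starting from these deposited values, limma 3.58.1 in R 4.3.3 removed background (normexp from detection p-values, offset 16) and quantile normalized all 4 arrays, and log2 differences were taken in Python 3.11.15 with pandas 2.3.3. Bead standard errors were carried through the normalization. Where a probe was undetected on the dimmer array, "at least" gives the bound against the higher of its own value and the lowest detected value there. The calculation was tested on simulated data. The number of arrays limits the precision.

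Members, lists and the rule for named genes were chosen with earlier results of these data known. Named are Rb1, the 10 largest differences each way that passed 1.6-fold with and without background correction, the leading members of each list, and the E2F targets the study shows with Cdkn1a. Other named genes, and 5 lists used in the closing section, were chosen after their values were seen.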

Additional observations from a re-analysis of the deposited data

How the results depend on the processing

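No paired analysis was possible because each condition has 1 array. Background correction and the threshold moved the counts most. Without background correction 54 genes were higher and 67 lower, and with an offset of 50, 52 and 60. A 2-fold threshold gave 23 and 38, and a 1.4-fold threshold 372 and 373. The interferon median was -0.63 without background correction, -0.60 with an offset of 50 and -0.56 without a filter on dim probes. Without that filter the medians were 0.26 for G2/M, 0.43 for H4, 0.0853 for H1 and H3, 0.0585 for the cornified envelope, and reversed to 0.0076 for complement and -0.0090 for neuropeptides. A detection p-value of 0.05 gave 0.47 for H4, 0.27 for neuropeptides and a reversed 0.0914 for complement. Averaging probes gave -0.0204 for metalloproteinases, 0.65 for H4 and 0.27 for Nrf2 targets. The cornified envelope median was 0.37 without background correction, 0.32 with an offset of 50 and 0.46 for genes detected on both arrays. Of 351 list medians under the 9 alternatives run for them, 15 moved beyond the bead error and 3 reversed. The 61 named genes past 1.6-fold kept their sign under all of these, and 47 stayed past 1.6-fold. Some of the 61 were named because they passed 1.6-fold with and without background correction, and others as leading members of lists. The 47 is thus partly fixed by that choice and does not stand for the other genes. Among all genes past the filter, 54 of 107 higher and 67 of 126 lower ones stayed past it without background correction. Causes of the shifts in counts and medians were not tested.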

Other observations

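Genes of the cornified envelope, a list written after Ivl had been seen, had 13 of 43 members detected. Of these 5 were higher with ΔCdk Rb than with WT Rb and 0 lower, with a median log2 difference of 0.59. The median was 0.46 for genes detected on both arrays, 0.32 with an offset of 50 and 0.0585 over all 43 without the filter on dim probes, and Lce1g was detected with ΔCdk Rb alone. Crct1, a cysteine-rich protein of the envelope cluster, had intensities of 722, 977, 1135 and 1978 on the parental, Rb-deleted, WT Rb and ΔCdk Rb arrays (0.84), Lce1f had 70.1, 58.8, 83.7 and 141 (1.03), and Lce3f went from 97.6 to 157 (0.92). The fibroblast cultures thus gave signal for envelope genes. The keratins Krt14, Krt16 and Krt10 lay below 0, at -0.46, -0.16 and -0.06, whereas the keratin Krt20 was higher past the filter.

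Placenta-type prolactin genes of MEFs, known as proliferins, were another group. Of 24 prolactin family genes 3 were detected, and all 3 were higher. Prl2c3 had 173, 192, 272 and 482 on the 4 arrays in the same order (0.91, bead standard error 0.05), and Prl2c4 and Prl2c2 gave 0.97 and 0.80. These genes are near copies of each other and may share message.

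Small leucine-rich proteoglycans and dermatopontin, matrix proteins that coat collagen fibrils, leaned the other way, with 10 of 11 below 0 and a median of -0.24. Past 1.6-fold were Podn, podocan (220.2 to 122 from WT Rb to ΔCdk Rb, -0.99), Ogn, osteoglycin (3461 to 1907, -0.85), and Dpt, dermatopontin (699 to 394, -0.83). Prelp went the other way, from 1929 to 2838 (0.58).

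Hypoxia response genes had 17 of 19 above 0 with a median of 0.25. Adfp, Pdk1, a kinase that curbs pyruvate oxidation, and Ankrd37 were higher past the filter, at 0.85, 0.73 and 0.72. Without background correction Pdk1 and Ankrd37 were inside the filter, at 0.55 and 0.61. With the correction, Adm, adrenomedullin, lay at -0.40. Among 10 Nrf2 targets 9 were above 0 (median 0.12). Nqo1, a quinone reductase, passed (425 to 696, 0.79), though its other detected probe went from 59.7 to 64.5 (0.24), and Hmox1, heme oxygenase, sat at the filter (1103 to 1719, 0.68). All 5 of these lists were written with the values known, and no test was made of them.

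Of 212 genes past the filter with a RefSeq position, 66 lay within 1 Mb of another that differed in the same direction, a count not set against the density of genes. On chromosome 3, 6 of the 12 genes analysed in the span of A030004J04Rik, Ivl, Lce1f, Lce1g, Lce3f and Crct1 were higher. On chromosome 14 these were 4 of 6, namely Cma2, Mcpt8, Gzme and Gzmd, on chromosome 13 all 3 proliferins, and on chromosome 16 3 of 7, namely the kininogens Kng2 and Kng1 and the complement protease Masp1. Without background correction Kng2 and Masp1 were at 0.55 and 0.53, and Gzmd at 0.65, inside the filter. Near copies in these clusters can share probes, and the part of this was not tested.

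Among genes outside every list, Spp1, osteopontin, was the brightest of the higher genes, with 4826 for WT Rb and 9875 for ΔCdk Rb (1.10). Prg4, lubricin, went from 215 to 491 (1.33) and S100a8, a calgranulin, from 165 to 311 (1.07). On the lower side, Ptn, the growth factor pleiotrophin, went from 10306 to 6126 (-0.73), its relative Mdk from 2630 to 1521 (-0.76) and the receptor Flt1 from 4230 to 2494 (-0.74). These genes were chosen after their values were seen.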
